A study of Mus musculus with 6 samples.

Results

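The 39 genes of fatty acid activation and oxidation described here were taken by gene name from a table of read counts per gene in mouse left ventricle, and all 39 were found among the 54532 genes of the table. They encode the enzymes that activate fatty acids to acyl-CoA, carry them into mitochondria and shorten them there or in peroxisomes, with the proteins that pass on the electrons and those that hold the pathway back. RNA was sequenced from 6 libraries, 3 labelled TG and 3 labelled NTG, and both groups had undergone aortic banding (AB), which narrows the aorta and overloads the ventricle. The TG mice carry a HINT2 transgene that Cre under the heart muscle promoter Myh6 switches on (genotype HINT2CTG-Myh6Cre), and the NTG mice are labelled C57BL/6J. The mice were males of 8 to 10 weeks at surgery, and the hearts were taken 4 weeks later. The transgene is of human sequence behind a CAG promoter and is activated in cardiomyocytes by tamoxifen. The sources used here do not say whether the sequenced NTG mice carried Cre or received tamoxifen, so the effects of HINT2, of Cre and of tamoxifen cannot be told apart.

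The adult heart draws most of its ATP from fatty acids. Acyl-CoA synthetases trap a fatty acid as its CoA ester, the carnitine shuttle moves the acyl chain across the inner mitochondrial membrane, and each turn of beta-oxidation then takes 4 steps, catalysed by an acyl-CoA dehydrogenase, a hydratase, a hydroxyacyl-CoA dehydrogenase and a thiolase. Malonyl-CoA, the product of the carboxylase encoded by Acacb, inhibits entry at carnitine palmitoyltransferase 1. Transcripts of this pathway are known to decline in the pressure-overloaded and failing heart, and many of the genes are targets of the nuclear receptors PPARα and ERRα with the coactivator PGC-1α.

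Total counts on genes lay between 14863568 and 17581220 per library. Mouse Hint2 was read first, since it checks the labels as far as human transgene reads align to it. The library labelled NTG 1 had 12 Hint2 counts, 0.819 CPM (counts scaled to a common library size, with TMM factors), against 28.9 and 32.3 CPM in NTG 2 and NTG 3 and 57.2, 47.1 and 53.0 CPM in TG 1, TG 2 and TG 3. The 12 counts go against the label of an unmodified control, so the calls and the median over the 39 genes, and the values of most other lists and of several single genes, are given with and without it. The log2 fold change of Hint2, TG over NTG, was 1.33 (standard error, SE, 0.86, adjusted p = 0.433, edgeR), and 0.77 without NTG 1 (adjusted p = 0.0212, edgeR). That library was set apart because of its own Hint2 count, so the second adjusted p is no check of the labels. An exact two-sided permutation test over the 6 libraries gave p = 0.1, the smallest that 3 against 3 allow. The study's methods count mice as the replicates of each group, and p-values measure the spread between these libraries.

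The fatty acid oxidation genes were on average higher in TG than in NTG, but none of them was called by edgeR's quasi-likelihood test, while DESeq2 called some. All 39 were among the 14774 genes with enough counts to be tested. Of these 39, 35 had a positive log2 fold change, against 48.7% of all genes tested, and their median log2 fold change was 0.45, against -0.0081 for all genes tested. A gene is termed called where its adjusted p is under 0.05 and its log2 fold change exceeds 0.5 in either direction. In the quasi-likelihood test of edgeR, adjusted after Benjamini and Hochberg, 0 of the 39 were called higher or lower, as were 0% of all genes in each direction, and the adjusted p of the 39 genes ran from 0.196 to 0.890. At an unadjusted p under 0.05 in the same test, 20 were higher, where the share of all genes was 8.83%, and 1 was lower, where it was 9.76%. DESeq2 called 6 of the 39 higher, namely Acaa2, Acacb, Acot1, Eci1, Etfb and Hadh, where it called 1.64% of all genes higher, and 0 lower, where it called 2.55%.

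The single libraries overlapped for most of the genes. In 8 of the 39 all 3 TG libraries lay above all 3 NTG libraries (11.2% of all genes tested), and in 2, Acsl4 and Cpt1a, all 3 lay below (12.3%). NTG 1 was the highest NTG library for 31 of the genes and lay above TG 2 for 29. NTG 2 was the lowest of the 6 libraries for 32, and TG 2 was the lowest TG library for 33. The mean over the 39 genes, as log2 CPM centred on the 6 libraries, was 0.053, -0.47 and -0.26 in NTG 1, NTG 2 and NTG 3 and 0.37, 0.020 and 0.29 in TG 1, TG 2 and TG 3. On this mean the groups overlapped, with NTG 1 above TG 2. Without NTG 1, edgeR called 12 of the 39 higher, against 2.67% of all genes, and 0 lower, against 2.85%, and the median log2 fold change was 0.64. The 12 were Acaa2, Acacb, Acot1, Decr1, Ech1, Eci1, Eci2, Etfa, Etfb, Hadh, Hsd17b10 and Mlycd. Without NTG 1, 9 of the 39 fold changes moved by over 1.5 times on the log2 scale, namely Acsl1 to 0.67, Acsl3 to 0.47, Cpt2 to 0.63, Slc22a5 to 0.37, Acad11 to 0.30, Hadhb to 0.57, Ehhadh to 0.78, Hsd17b4 to 0.064 and Acot13 to 0.36. Without NTG 2, 17 moved by that much, all of them towards 0 or past it. These were Acsl1 at 0.26, Acsl4 at -0.23, Acsl5 at -0.065, Cpt2 at 0.22, Crat at 0.31, Crot at 0.025, Slc22a5 at 0.10, Acadl at 0.13, Acads at 0.31, Acad11 at -0.037, Hadha at 0.28, Hadhb at 0.21, Etfdh at 0.28, Ehhadh at 0.26, Hsd17b4 at -0.058, Acaa1a at 0.14 and Acot13 at 0.13. Without each of the other four libraries 1 to 6 moved by that much. Without NTG 2 the median was 0.28, the lowest with any 1 library left out, and 0 were called by edgeR. DESeq2 without TG 2 called 12 of the 39 higher, against 2.02% of all genes.

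**Figure D1:**
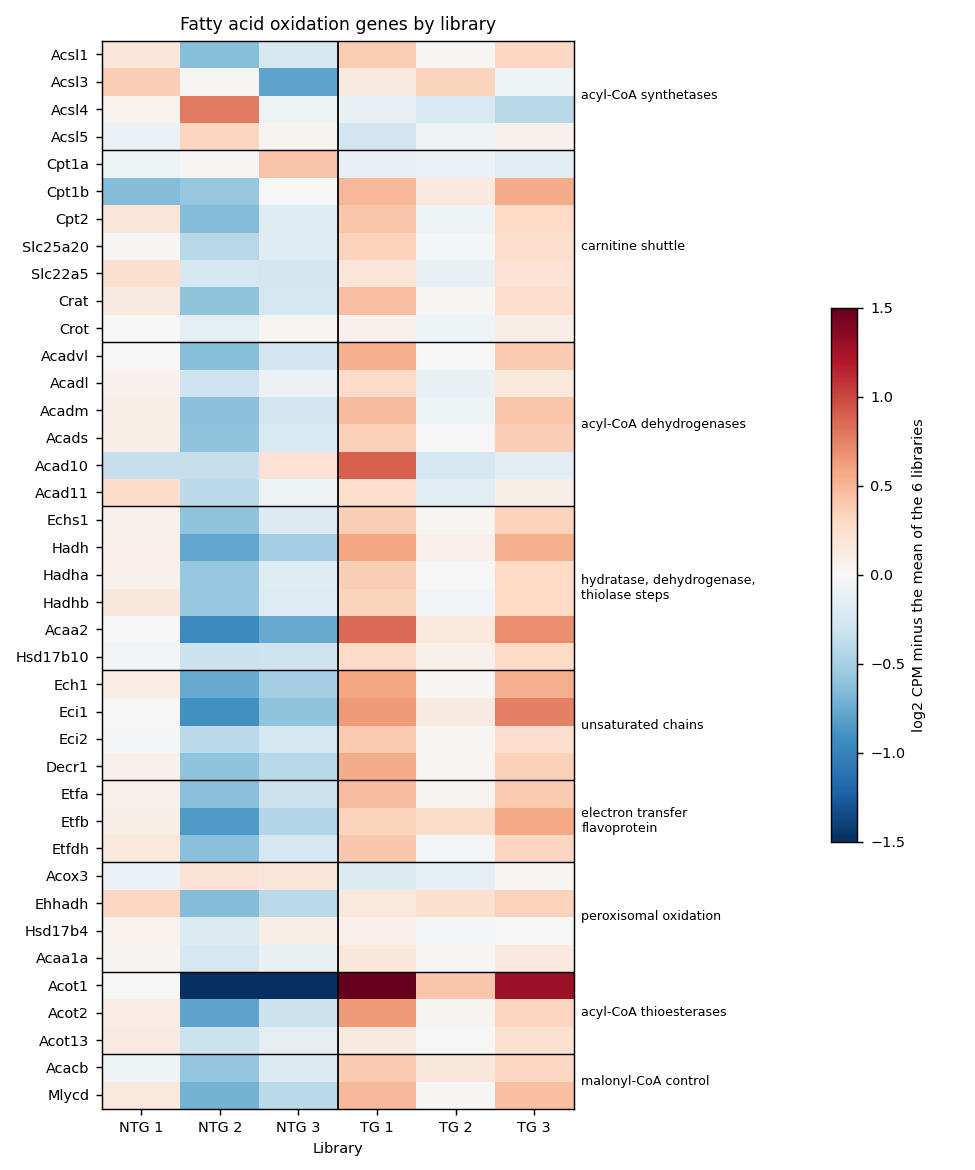
Level of each of the 39 genes (rows, grouped by role) in each of the 6 libraries (columns), as log2 CPM without a prior count minus the mean of the 6 libraries, with the colour scale ending at 1.5 in both directions, past which Acot1 lies in NTG 2, NTG 3 and TG 1. TG 1 and TG 3 are high and NTG 2 is low in most rows, NTG 1 and TG 2 lie near the middle, and Acsl4, Acsl5, Cpt1a and Acox3 run the other way.

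**Figure D2:**
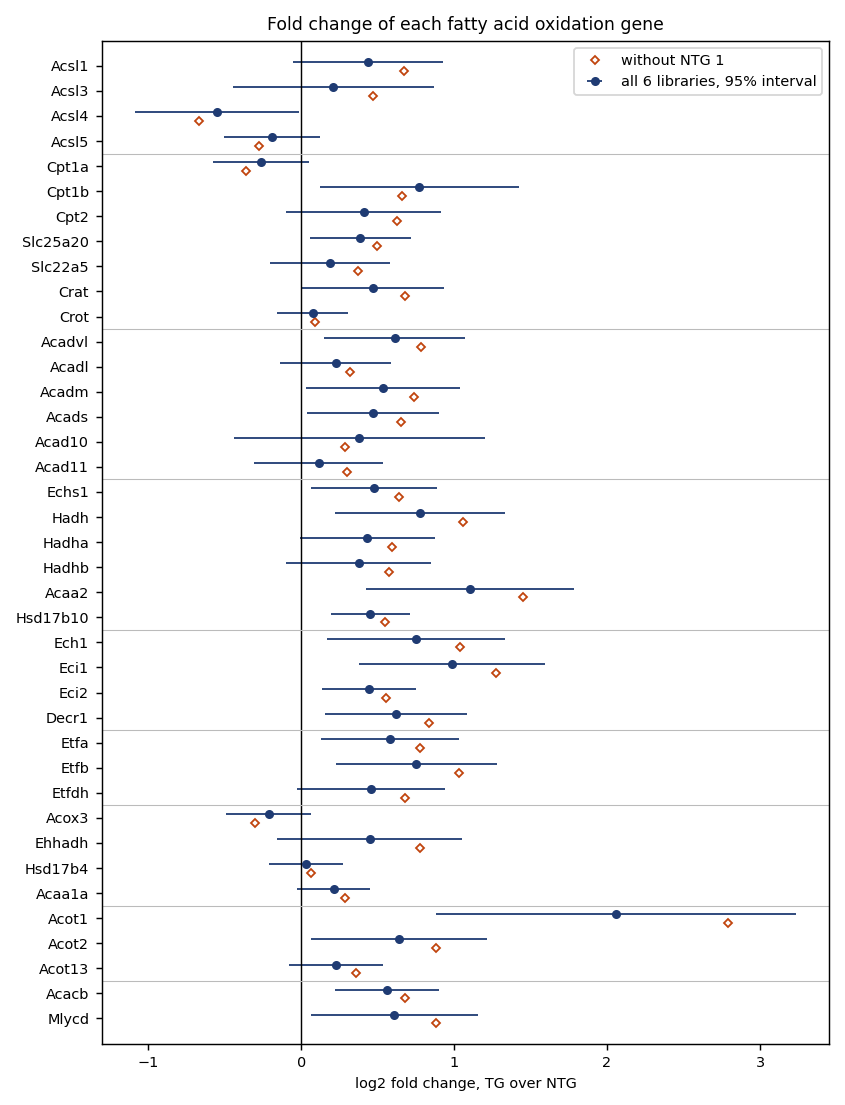
Log2 fold change, TG over NTG, of each of the 39 genes with its 95% interval from edgeR (filled circles, 6 libraries) and the same value without the library labelled NTG 1 (open diamonds). Of the 39 circles, 35 lie above 0, and the diamonds lie farther from 0 for most genes, with Cpt1b and Acad10 among the exceptions.

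The 4 acyl-CoA synthetases, which activate fatty acids, did not share a direction. Their median log2 fold change was 0.011. Acsl1, the main synthetase of heart muscle, was at 604 ± 77.9 CPM in TG (SD, n = 3, as for each mean below) and 446 ± 126 CPM in NTG, a log2 fold change of 0.44. Acsl4, which prefers arachidonic acid, was at 28.7, 47.8 and 26.3 CPM in NTG 1, NTG 2 and NTG 3 and at 25.7, 23.8 and 20.8 CPM in TG 1, TG 2 and TG 3. The groups did not overlap, but NTG 3 and TG 1 lay next to each other and NTG 2 stood apart, and the log2 fold change was -0.55 (SE 0.23, adjusted p = 0.257, edgeR), or -0.23 without NTG 2. Acsl5 and Acsl3 had log2 fold changes of -0.19 and 0.21, and Acsl3 was the weakest of the 4 per length, at 1.63 RPKM (CPM per kilobase of gene length). Per Acsl4 count there were 26.0 ± 4.41 Acsl1 counts in TG and 14.5 ± 6.83 in NTG (exact two-sided permutation test, p = 0.1, the smallest 3 against 3 allow), and the NTG mean was 11.6 without NTG 1 and 18.3 without NTG 2. Acsl4 was detailed after its values were seen, so this ratio is a description only.

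Carnitine palmitoyltransferase 1 is the committed step of entry into mitochondria and exists as a liver type, Cpt1a, and a muscle type, Cpt1b. In the table, on GRCm38, Cpt1a (ENSMUSG00000024900) spans bases 3323301 to 3385732 of chromosome 19 on the plus strand, and Cpt1b (ENSMUSG00000078937) bases 89416405 to 89425863 of chromosome 15 on the minus strand. Cpt1a was at 56.0, 60.0 and 79.7 CPM in NTG 1, NTG 2 and NTG 3 and at 54.7, 55.7 and 52.8 CPM in TG 1, TG 2 and TG 3, a log2 fold change of -0.26 (SE 0.14, adjusted p = 0.332, edgeR), or -0.093 without NTG 3. All TG libraries lay below all NTG libraries, though NTG 1 and TG 2 differed little and NTG 3 stood above the rest. Without NTG 3 the log2 fold change of Cpt1a was -0.093. Cpt1b was at 1.5, 1.59 and 2.37 CPM in the NTG libraries and at 3.32, 2.62 and 3.46 CPM in the TG libraries, in the same order, with a log2 fold change of 0.77 (SE 0.28, adjusted p = 0.221, edgeR). Here the TG libraries all lay above the NTG libraries, and NTG 3, not NTG 1, was the highest of the libraries labelled NTG. The ratio of Cpt1b to Cpt1a counts was 0.0577 ± 0.0096 in TG and 0.0277 ± 0.00177 in NTG, without overlap (exact two-sided permutation test, p = 0.1, the smallest possible here), and the NTG mean was 0.0282 without NTG 1. The level of Cpt1b, a mean count of 40.2 per library, cannot be set against that of Cpt1a. In GENCODE M21, 81.4% of its exon bases also belong to the gene model Gm44502 on the same strand, which had 0 counts, and how reads in such shared exons were counted is not given in the sources used here.

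The remaining shuttle genes were higher in TG on average, and the NTG and TG libraries overlapped in each. Slc25a20, the carnitine-acylcarnitine carrier of the inner membrane, was at 119, 87.9 and 103 CPM in NTG 1 to NTG 3 and at 149, 115 and 141 CPM in TG 1 to TG 3 (log2 fold change 0.39, SE 0.14, adjusted p = 0.224, edgeR). Cpt2, which returns the acyl chain to CoA on the matrix side, was at 150, 84.4 and 117 CPM in NTG and 177, 127 and 162 CPM in TG, a log2 fold change of 0.41. In both, NTG 1 lay above TG 2. Crat, the carnitine acetyltransferase that buffers short acyl groups, had a log2 fold change of 0.47. Slc22a5, the carnitine transporter of the plasma membrane, and Crot, the peroxisomal carnitine octanoyltransferase, had 0.19 and 0.075, or 0.37 and 0.087 without NTG 1. Of the 7 genes of the shuttle, 6 had positive fold changes with a median of 0.39. At an unadjusted p under 0.05 (edgeR), 3 were higher, where the share of all genes was 8.83%. DESeq2 over the 6 libraries called 0 higher or lower (1.64% and 2.55% of all genes). EdgeR without NTG 1 also called 0 in either direction (2.67% and 2.85%). DESeq2 without NTG 1, which called 6.29% of all genes higher, called 3 of the shuttle genes higher, namely Cpt2, Crat and Slc25a20.

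All 6 acyl-CoA dehydrogenases, which carry out the first step of each turn, had positive fold changes, with a median log2 value of 0.42. Acadvl, for very long chains, was at 277, 177 and 225 CPM in NTG 1, NTG 2 and NTG 3 and at 399, 275 and 363 CPM in TG 1, TG 2 and TG 3 (log2 fold change 0.61, SE 0.20, adjusted p = 0.21, edgeR). NTG 1 and TG 2 were level with each other. Acadm, for medium chains, was at 710, 433 and 547 CPM in NTG and 924, 638 and 889 CPM in TG, a log2 fold change of 0.54. Acads, for short chains, had 0.47, and Acadl, the long-chain enzyme and the most abundant of the 39 genes per length at 355 RPKM, had 0.23. Acad10 and Acad11, related enzymes outside the core cycle, had 0.38 and 0.11, and Acad10, the least abundant of the 39 at 0.588 RPKM, stood out in TG 1 alone, at 6.27 CPM against 2.66 to 3.93 CPM in the other five libraries. These 2 values changed sign in some fits that left out 1 library: Acad10 was at -0.075 without TG 1 and Acad11 at -0.037 without NTG 2. Of the exon bases of Acadvl, 42.9% are also covered by Dvl2 on the opposite strand, which had a mean count equal to 2.62% of that of Acadvl.

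Acaa2, the mitochondrial 3-ketoacyl-CoA thiolase of the last step, had the largest fold change among the enzymes of the 4 steps. It was at 330, 168 and 194 CPM in NTG 1, NTG 2 and NTG 3 and at 590, 365 and 531 CPM in TG 1, TG 2 and TG 3. The TG libraries all lay above the NTG libraries, with NTG 1 close under TG 2. The difference was 2.15-fold, a log2 fold change of 1.10 with a 95% interval of 0.42 to 1.78 (adjusted p = 0.196, edgeR; 0.00544, DESeq2), and 1.45 without NTG 1 (adjusted p = 0.0211, edgeR).

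Hsd17b10, a short-chain hydroxyacyl-CoA dehydrogenase that also serves isoleucine breakdown and mitochondrial tRNA processing, had the smallest unadjusted p of the 39 genes. It was at 72.2, 59.4 and 60.2 CPM in NTG 1 to NTG 3 and at 92.0, 78.7 and 91.8 CPM in TG 1 to TG 3, without overlap (log2 fold change 0.45, SE 0.11, adjusted p = 0.196, edgeR). Its difference was smaller than that of Acaa2 and its libraries lay closer together. Hadh, the hydroxyacyl-CoA dehydrogenase for medium and short chains, was at 338, 186 and 225 CPM in NTG and 484, 338 and 463 CPM in TG. NTG 1 and TG 2 were level, and the log2 fold change was 0.78 (SE 0.24, adjusted p = 0.204, edgeR; 0.0353, DESeq2). Echs1, the short-chain enoyl-CoA hydratase, had 0.48.

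Hadha and Hadhb encode the α and β subunits of the mitochondrial trifunctional protein, which handles the last 3 steps for long chains. Hadha was at 876, 559 and 727 CPM in NTG 1, NTG 2 and NTG 3 and at 1072, 825 and 1017 CPM in TG 1, TG 2 and TG 3, a log2 fold change of 0.43. Hadhb was at 958, 576 and 748 CPM in NTG and 1074, 833 and 1052 CPM in TG, a log2 fold change of 0.37. The subunits moved together from library to library. There were 1.02 ± 0.0167 Hadhb counts per Hadha count in TG and 1.05 ± 0.0375 in NTG, which overlapped (exact two-sided permutation test, p = 0.3), and the NTG mean was 1.03 without NTG 1. In contrast, Acaa2 counts per Hadhb count were 0.497 ± 0.056 in TG and 0.298 ± 0.0429 in NTG, without overlap (exact two-sided permutation test, p = 0.1, the smallest possible here), and the NTG mean was 0.275 without NTG 1. The 2 subunit genes lie head to head on chromosome 5, with Hadha from 30118304 to 30155162 on the minus strand and Hadhb from 30155248 to 30184593 on the plus strand of GRCm38. The stretch between them is shown because, in these coordinates, the 2 genes start at its ends. The RefSeq window of Hadha (chr5:30154931-30155230) instead places its start inside the gene as given here. The printed stretch is taken from the RefSeq promoter window of Hadhb (GRCm38.p6, plus strand, chr5:30155143-30155267), with the 85 bases between the genes in capitals.
Hadha to Hadhb: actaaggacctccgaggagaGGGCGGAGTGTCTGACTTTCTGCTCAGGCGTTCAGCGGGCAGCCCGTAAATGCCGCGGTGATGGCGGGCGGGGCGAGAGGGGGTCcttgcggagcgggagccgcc

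The auxiliary enzymes that prepare unsaturated chains for the cycle had the highest median of the role groups, with 4 of 4 positive and a median log2 fold change of 0.68. All 4 were called higher by edgeR without NTG 1, where the share of all genes was 2.67% and the median of the 4 was 0.94. Eci1, an enoyl-CoA isomerase that shifts the double bond, was at 138, 74.3 and 91.3 CPM in NTG 1, NTG 2 and NTG 3 and at 216, 152 and 234 CPM in TG 1, TG 2 and TG 3. The groups did not overlap, and TG was 1.98-fold higher (log2 fold change 0.99, SE 0.26, adjusted p = 0.196, edgeR; 0.00783, DESeq2). Eci2, an isomerase found in mitochondria and peroxisomes, was at 76.0, 58.7 and 64.2 CPM in NTG and 101, 77.8 and 91.7 CPM in TG. Its groups did not overlap either, although NTG 1 and TG 2 nearly met, and its log2 fold change was 0.44. Decr1, the 2,4-dienoyl-CoA reductase, was at 226, 142 and 162 CPM in NTG and 316, 221 and 277 CPM in TG (log2 fold change 0.62, SE 0.20, adjusted p = 0.21, edgeR). Ech1, a dienoyl-CoA isomerase, had 0.75, with overlap.

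The electron transfer flavoprotein takes electrons from the acyl-CoA dehydrogenases, and Etfdh hands them to ubiquinone. Its β subunit gene, Etfb, was at 32.9, 17.2 and 22.9 CPM in NTG 1, NTG 2 and NTG 3 and at 38.9, 37.3 and 46.3 CPM in TG 1, TG 2 and TG 3 (log2 fold change 0.75, SE 0.23, adjusted p = 0.203, edgeR; 0.0463, DESeq2). The groups did not overlap. Etfa, the α subunit gene, had a log2 fold change of 0.58 and Etfdh 0.46, both with overlap. Etfa was at 226 RPKM in TG, and the 35.1 RPKM of Etfb cannot be set against it, since 58.2% of the exon bases of Etfb also belong to Gm45233 on the same strand, which had 0 counts.

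The peroxisomal genes lay closer to 0, with a median log2 fold change of 0.12. At an unadjusted p under 0.05 (edgeR), 0 of 4 were higher or lower, where the shares of all genes were 8.83% and 9.76%. With 4 genes, 0 lies near these shares. Ehhadh, the peroxisomal bifunctional enzyme and a known PPARα target, had 0.45, or 0.78 without NTG 1 and 0.26 without NTG 2, and DESeq2 called it higher without NTG 1 (6.29% of all genes). Acaa1a, the peroxisomal thiolase, had 0.21. Hsd17b4, the multifunctional enzyme for branched and very long chains, had 0.032, from 85.2 ± 3.25 CPM in TG and 83.3 ± 9.21 CPM in NTG. Acox3, an oxidase for branched chains, had -0.21. Whether peroxisomal and mitochondrial genes differed from each other was not tested. The 95% interval of Hsd17b4 ran from -0.21 to 0.27, and its sign changed with scaling to library size alone and without NTG 2.

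Among the thioesterases, which release free fatty acid from acyl-CoA, Acot1 had the largest fold change of the 39 genes at a low level. This cytosolic, PPARα-responsive enzyme was at 2.59, 0.797 and 0.868 CPM in NTG 1, NTG 2 and NTG 3 and at 7.72, 3.47 and 6.30 CPM in TG 1, TG 2 and TG 3. The groups did not overlap, with NTG 1 nearer to TG 2 than to NTG 2 and NTG 3. The difference was 4.16-fold (log2 fold change 2.06, 95% interval 0.88 to 3.24, adjusted p = 0.196, edgeR; 0.00485, DESeq2), and 2.79 on the log2 scale without NTG 1. Acot1 (ENSMUSG00000072949) spans bases 84009490 to 84018371 of chromosome 12 on the plus strand. Acot2, which encodes the mitochondrial enzyme and ends 15616 bases upstream on the same strand, had a log2 fold change of 0.64, and Acot13 had 0.23. Of all stretches of 50 bases in Acot1 transcripts, 19.2% also occur in another gene, mainly Acot2, so reads could have been shared between them. The same limit holds for Acot2 (27.7%), Slc22a5 (26.3%), Hadhb (19.7%), Acad10 (17.1%) and Acaa1a (12.9%). For Cpt1b and Etfb the share was 78.6% and 44.8%.

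Of the 39 genes, Acacb and Mlycd act on malonyl-CoA, and both had positive log2 fold changes. Acacb, the acetyl-CoA carboxylase of the mitochondrial surface that makes malonyl-CoA (ENSMUSG00000042010, chromosome 5, 114146535 to 114250761, plus strand), was at 214, 149 and 194 CPM in NTG 1, NTG 2 and NTG 3 and at 293, 251 and 278 CPM in TG 1, TG 2 and TG 3. The groups did not overlap (log2 fold change 0.56, SE 0.15, adjusted p = 0.196, edgeR; 0.0239, DESeq2). Mlycd, the decarboxylase that removes malonyl-CoA, was at 81.1, 44.5 and 55.0 CPM in NTG and 102, 73.7 and 99.6 CPM in TG. NTG 1 lay above TG 2, and the log2 fold change was 0.61 (SE 0.23, adjusted p = 0.232, edgeR). Acaca, the cytosolic carboxylase that also makes malonyl-CoA and is not among the 39, lay lower in all 3 TG libraries than in all 3 NTG libraries, with a log2 fold change of -0.44 (adjusted p = 0.203, edgeR), and was called lower without NTG 1 at -0.55 (adjusted p = 0.0445, edgeR).

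**Figure D3:**
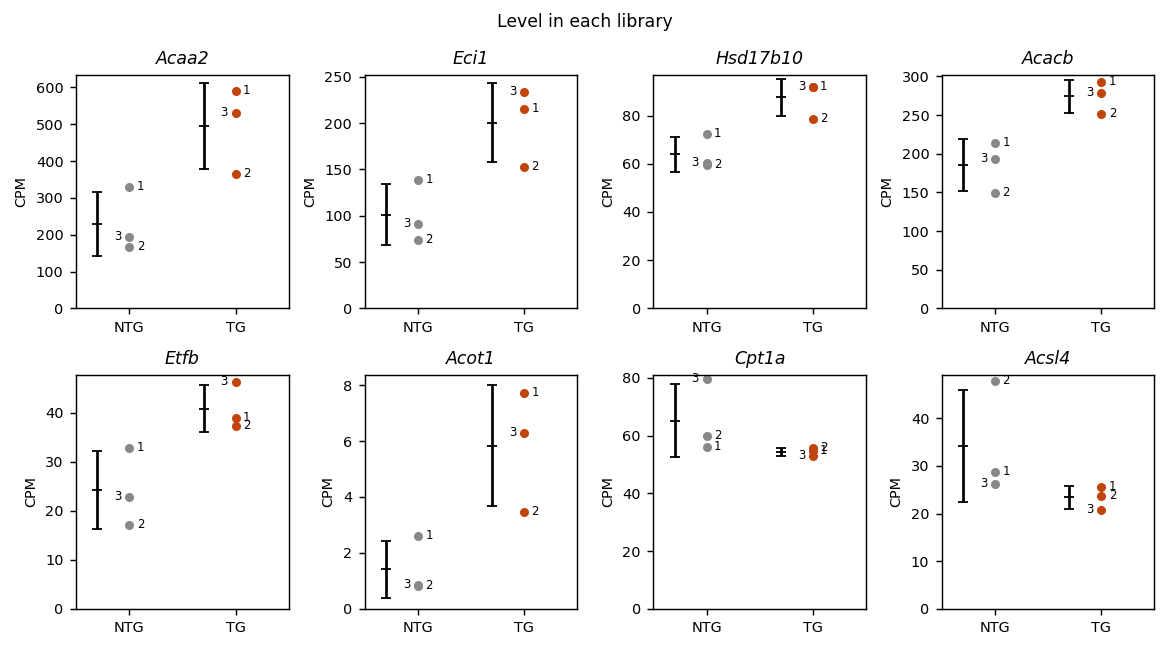
CPM of 8 of the 39 genes in each library (points numbered by replicate), with the group mean and SD beside them, n = 3. All TG points lie above all NTG points for Acaa2, Eci1, Hsd17b10, Acacb, Etfb and Acot1, with the library labelled NTG 1, whose Hint2 count goes against its label, the closest to them, and all lie below for Cpt1a and Acsl4.

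The fold change was positive in every one of the 24 genes over 20 RPKM, where the median was 0.47 and the range 0.032 to 1.10. At or under 20 RPKM, 11 of 15 were positive, with a median of 0.21 and a range from -0.55 to 2.06. All 4 genes with negative values, Acsl4, Acsl5, Cpt1a and Acox3, were therefore among the less abundant. Across the 39 genes the log2 level and the log2 fold change had a Pearson r of 0.11 and a Spearman rho of 0.37, as a description, since the genes share the same 6 libraries.

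Promoters were read for 33 of the 39 genes with a RefSeq window of 300 bases (250 before the start and 50 after, GRCm38.p6). Members of the PPAR family bind with RXR to 2 copies of AGGTCA in the same direction 1 base apart, and ERRα to TCAAGGTCA, which contains AGGTCA. Both strands were searched. The repeat with at most 2 mismatches was found in 3 of the 33 genes, against 3.86% of 32851 windows. With at most 1 mismatch, a limit added after the values were seen, it was found in 0, against 0.554%. A gene with more than 1 window, such as Acsl1, was counted once, while the shares are of single windows. TCAAGGTCA was found in 0 of 33, against 0.423%. No match says only that these letters are absent from this window. The 3 matches are printed with the repeat in capitals because they are all that this search found in the pathway, each with 2 mismatches. That of Echs1 begins 83 bases before the RefSeq start (chr7:140116472-140116524, minus strand), that of Etfa 77 bases before it and in reverse (chr9:55512288-55512340, minus strand), and that of Slc25a20 6 bases after it (chr9:108662134-108662162, plus strand).
Echs1: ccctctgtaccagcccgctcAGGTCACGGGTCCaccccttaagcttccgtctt
Etfa: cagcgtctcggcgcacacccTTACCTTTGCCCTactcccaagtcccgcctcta
Slc25a20: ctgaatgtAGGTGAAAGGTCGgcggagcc
These genes had log2 fold changes of 0.48, 0.58 and 0.39, which lie within the range of the genes without a match.

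Of the known regulators, Esrra, which encodes ERRα, was at 116, 77.9 and 99.9 CPM in NTG 1, NTG 2 and NTG 3 and at 163, 127 and 157 CPM in TG 1, TG 2 and TG 3, without overlap (log2 fold change 0.61, SE 0.16, adjusted p = 0.196, edgeR; 0.0313, DESeq2). Without NTG 1 it was 0.75 (adjusted p = 0.037, edgeR). Ppara was at 22.9, 10.5 and 16.4 CPM in NTG and 36.2, 21.8 and 34.8 CPM in TG (log2 fold change 0.90, adjusted p = 0.217, edgeR), and the log2 fold change was 1.2 without NTG 1 (adjusted p = 0.0659, edgeR). Ppargc1a, which encodes PGC-1α, was at 94.4, 26.8 and 29.5 CPM in NTG and 150, 95.1 and 93.2 CPM in TG. For Ppargc1a, NTG 1 lay among the TG libraries, and the log2 fold change was 1.17 with it (adjusted p = 0.282, edgeR) and 2.0 without it (adjusted p = 0.0204, edgeR). Rxrb, a partner of the PPAR family, had 0.33. Of 20 regulators tested, 15 were positive with a median of 0.23. At an unadjusted p under 0.05 (edgeR), 4 were higher (8.83% of all genes) and 0 lower (9.76%). Without NTG 1 their median was 0.32, and edgeR called 4 higher (2.67% of all genes) and 0 lower (2.85%). Fits without NTG 2, which lowered the median of the 39 genes to 0.28, are not given for the regulators or the lists below.

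Further genes of fatty acid oxidation and PPAR targets were read from lists. Of 35 other fatty acid oxidation genes tested, 23 were positive with a median log2 fold change of 0.16. At an unadjusted p under 0.05 (edgeR), 6 were higher (8.83% of all genes) and 3 lower (9.76%). Those with the smallest p were Cpt1c, the brain type of carnitine palmitoyltransferase 1, at -0.99, Pccb, a subunit of propionyl-CoA carboxylase, at 0.55, and Acaca, the cytosolic acetyl-CoA carboxylase of lipid synthesis, at -0.44. Of 12 further PPAR-responsive genes, 7 were positive with a median of 0.29. Among them Plin2, a lipid droplet coat protein, was at -0.27, Pdk4, the kinase that shuts off pyruvate dehydrogenase, at -0.40 and the fatty acid transporter gene Slc27a1 at 0.35. The largest log2 fold change in size was that of Angptl4, at -1.30 with overlap between the groups, and -1.73 without NTG 1. Angptl4 was named after its value was seen. By edgeR at an unadjusted p under 0.05, 0 of these 12 were higher (8.83% of all genes) and 2, Plin2 and Pdk4, were lower (9.76%). In the same test 0 were called, as were 0% of all genes. Without NTG 1 the median of the other fatty acid oxidation genes was 0.19, with 2 called higher (2.67% of all genes) and 2 lower (2.85%) by edgeR. For the PPAR-responsive genes the median was then 0.38, with 0 called.

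Other lists of energy metabolism were read beside the 39 genes. Of 36 complex I subunits, 36 were positive with a median log2 fold change of 0.50, and DESeq2 called 15 of them higher (1.64% of all genes). The smallest p were those of Ndufs6 (1.04), Ndufa2 (0.82) and Ndufa13 (0.66). Of 21 citrate cycle genes, 20 were positive with a median of 0.33. The 3 with the smallest p were Sdhb (0.57), Idh3b (0.52) and Fh1 (0.53), and the largest fold change was that of Idh2 (0.72), named after its value was seen. Of 17 glycolysis genes, 6 were positive, the median was -0.17, and the 3 with the smallest p were Pfkp (-0.55), Eno1 (-0.58) and the muscle enolase Eno3 (0.74). DESeq2 called 2 citrate cycle genes and 1 glycolysis gene higher and 0 lower. In edgeR 0 genes of these lists were called, as were 0% of all genes. At an unadjusted p under 0.05 (edgeR), 29 complex I subunits and 8 citrate cycle genes were higher with 0 lower. Of the glycolysis genes, 4 were higher and 3 lower. Among all genes 8.83% were higher and 9.76% lower. The median of the 39 genes thus lay between those of complex I and of the citrate cycle. Without NTG 1 the medians were 0.60 for complex I, 0.49 for the citrate cycle and -0.24 for glycolysis, against 0.64 for the 39 genes. In that fit edgeR called 21, 4 and 1 genes of these lists higher (2.67% of all genes) and 0, 0 and 2 lower (2.85%). Differences between the lists were not tested.

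Cardiomyocyte and fibroblast markers moved with the fatty acid oxidation genes from library to library, in opposite directions. All 8 cardiomyocyte markers were positive with a median log2 fold change of 0.43, and their summed level was 22888 to 37668 CPM in NTG and 35409 to 43493 CPM in TG. All 8 fibroblast markers were negative with a median of -0.88, and their sum was 4709 to 10852 CPM in NTG and 2317 to 4017 CPM in TG, without overlap. The 8 macrophage markers had a median of -0.60 and sums of 997 to 1780 CPM in NTG and 709 to 1006 CPM in TG, and the 5 of 7 erythroid markers tested had a median of -1.05 and sums of 1310 to 2248 CPM and 763 to 908 CPM. Endothelial markers had a median of 0.015 with sums of 1743 to 2030 CPM in NTG and 1799 to 1972 CPM in TG, smooth muscle and pericyte markers had -0.013 with 1302 to 1672 CPM and 1375 to 1673 CPM, and 1 of 8 adipocyte markers had enough counts to be tested, with a sum of at most 29.8 CPM over the list. Without NTG 1 the median was 0.65 for cardiomyocyte, -1.04 for fibroblast, -0.79 for macrophage and -1.33 for erythroid markers, and the NTG sums were 22888 to 30882 CPM for cardiomyocyte and 6760 to 10852 CPM for fibroblast markers. The mean of the 39 genes minus the mean of the cardiomyocyte markers, a value added after the data were seen, lay between -0.062 and 0.091 on the log2 scale in all 6 libraries, and its group means were 0.011 in TG and -0.011 in NTG. NTG 2 was the highest library on this difference and the lowest on the genes themselves. In this bulk tissue a larger share of cardiomyocyte RNA and more RNA of these genes per cardiomyocyte cannot be told apart. The 39 genes took 0.861%, 0.596% and 0.706% of the counts in NTG 1, NTG 2 and NTG 3 and 1.02%, 0.838% and 1.01% in TG 1, TG 2 and TG 3, and the genes of the mitochondrial genome took 13.4% to 19.2% in NTG and 16.0% to 21.5% in TG.

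**Figure D4:**
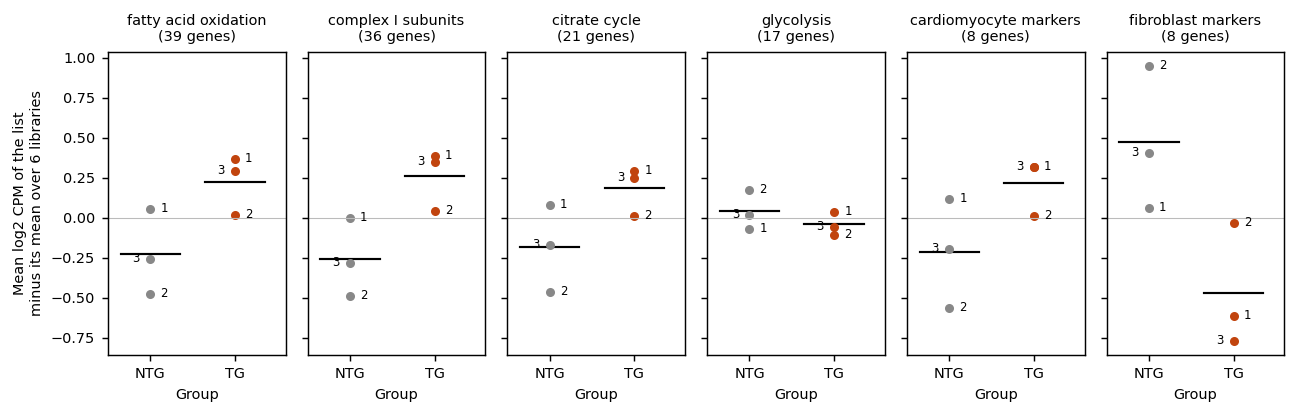
Mean log2 CPM of 6 gene lists in each library (points numbered by replicate), each centred on its own mean over the 6 libraries, with the group mean as a line. The order of the libraries is nearly the same for fatty acid oxidation, complex I, citrate cycle and cardiomyocyte genes, with NTG 2 lowest and TG 1 and TG 3 highest, and it is turned round for fibroblast markers, while the glycolysis genes spread less.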

How the data were processed

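The authors cleaned and mapped the reads, added transcripts predicted by StringTie and ran featureCounts, and the deposited values used here are its raw counts per gene. The submitters' processing notes name HISAT2, DESeq2 and GRCh38, but the identifiers and coordinates are of mouse, and 36 of the 39 genes match GENCODE M21 (GRCm38) in start and end. Strand and multi-mapped reads are not given in the sources used here, so genes that share exons or sequence are uncertain. The 6 columns were matched by label, with 0 left over.

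Counts were tested in R 4.3.3 with edgeR 4.0.16 (TMM, filterByExpr, robust quasi-likelihood test) without covariates. Alternatives were DESeq2 1.42.0, limma 3.58.1 (voom), a likelihood-ratio test, other scalings and filters, a length offset, a replicate block, and each library left out. Scripts were tested on simulated data. Centred log2 CPM used a prior count of 2. All 39 genes are named, with every library given for the 10 of smallest unadjusted p and 10 textbook steps, and other lists by their 3 genes of smallest p plus Ppara, Ppargc1a and Esrra. Acsl4 and Acad10 were detailed after their values were seen. Members and lists were chosen with earlier results of these data known. Same-numbered libraries deviated from their group means with correlations of 0.079, 0.17 and -0.25, so the numbers were not taken as pairs.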

Additional observations from a re-analysis of the deposited data

How the results depend on the processing

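Over 25 alternatives, 33 to 35 of the 39 genes kept a positive log2 fold change, and the median lay between 0.28 and 0.65. In 17 of them 0 of the 39 were called, and in 0 was any called lower. The number called higher was 1 with no low-count filter, 4 by the likelihood-ratio test, 6 by DESeq2, 7 with the replicate block and 10 with the block and a gene length offset. Over all genes these settings called 116, 206, 228, 84 and 115 higher and 116, 339, 355, 147 and 138 lower, against 0 and 0 in edgeR's quasi-likelihood test. The fit with no low-count filter held 26858 genes and the others 14774, so these counts are not on 1 base. The replicate numbers share only a number, and 1 of the 3 pairs correlated best with its own number, so the block is given only here.

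With 1 library left out, 0 to 25 of the 39 were called higher, with 12 in edgeR and 25 in DESeq2 without NTG 1 (6.29% of all genes), 12 in DESeq2 without TG 2 (2.02% of all genes), and 0 in the other fits. Over all genes these fits called 0 to 896 higher and 0 to 877 lower. The genes higher at an unadjusted p under 0.05 (edgeR or DESeq2) numbered 8 (without TG 1, 4.98% of all genes) to 28 (without NTG 1, 13.7% of all genes in edgeR). Those with all TG libraries above all NTG libraries numbered 8 to 29, with 29 both without NTG 1 (23.4% of all genes) and without TG 2 (20.2%). These last 2 counts were recomputed after the values were seen. Scaling to library size alone, which moved the median of all genes to -0.093, gave 15 without overlap higher (8.67% of all genes) and 1 lower (14.7%).

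The sign of the log2 fold change changed under at least 1 alternative for 5 of the 39 genes. With 1 library left out, Acsl3 ranged from -0.051 (without NTG 3) to 0.48, Acad10 from -0.075 (without TG 1) to 0.61, Acad11 from -0.037 (without NTG 2) to 0.31 and Hsd17b4 from -0.058 (without NTG 2) to 0.097, with negative values in edgeR and DESeq2 alike: -0.043 for Acsl3, -0.072 for Acad10, -0.034 for Acad11 and -0.056 for Hsd17b4 in DESeq2. Hsd17b4 was also at -0.00196 without TG 1 in edgeR. With library size alone, Crot was at -0.0099 and Hsd17b4 at -0.051. Hint2 passed the threshold only without NTG 1, at 0.77 by edgeR and 0.78 by DESeq2, in a range of 0.77 to 1.83 with 1 library left out. NTG 1 was set apart because of its own Hint2 count, so this pass is no check of the labels. The promoter repeat with at most 1 mismatch was found in 0 of the 33 genes with a window (0.554% of all windows). The causes were not tested. Counting error weighs most on Cpt1b, Acot1 and Acad10, which had mean counts of 40.2, 56.3 and 57.2 per library.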
